A study of Homo sapiens with 8 samples.

Results

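The genes described here encode 8 enzymes that reduce quinones, carbonyl groups and oxidized prostaglandins or hydrolyse epoxides: NQO1, NQO2, CBR1, CBR3, CBR4, PTGR1, PTGR2 and EPHX1. They were chosen by name from the 60291 gene identifiers of the deposited count files, each symbol matched to its Ensembl identifier. The cells were A549, an established human lung adenocarcinoma line that carries a loss-of-function mutation in KEAP1, so that every group, controls included, had this mutation. Small interfering RNA (siRNA) duplexes, which direct the breakdown of matching mRNAs, were transfected into 250000 cells at 5 nmol with a lipid reagent, and total RNA was collected after 48 h. The NFE2L2 siRNA group has 3 libraries from 3 duplexes transfected once each, the control siRNA group has 4 libraries from 2 non-targeting duplexes transfected 2 times each, and 1 mock library received the lipid reagent without siRNA. The cells were not authenticated for the study. Control replicates 1 and 2 carry control duplex 1, and control replicates 3 and 4 carry control duplex 2. All libraries come from 1 cell line, and nothing in the sources says that the transfections used separately grown cultures, so p-values measure the spread between these transfections.

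NFE2L2 encodes NRF2, a transcription factor that KEAP1 marks for degradation in unstressed cells. Together with small MAF proteins, NRF2 binds antioxidant response elements (AREs) near genes for detoxifying enzymes, and NQO1 is among the textbook examples of such genes. Quinone reductases turn quinones into hydroquinones in a single step that bypasses the reactive semiquinone, carbonyl reductases turn ketones and aldehydes into alcohols, prostaglandin reductases inactivate 15-oxo-prostaglandins by saturating a double bond, and epoxide hydrolases open epoxides to diols. The comparison asks how the mRNA levels of these enzymes differ when NFE2L2 is silenced in cells where NRF2 is constitutively high.

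Reads counted on genes numbered from 35525141 to 41645410 over the siRNA libraries, 60.3 to 65.6% of the entries in each file, and 39498992 in the mock library. Levels are given as CPM, counts per 1000000 TMM-scaled gene counts. Without the TMM scaling, 3 counts correspond to 0.0720 to 0.0844 per 1000000 gene counts. The quasi-likelihood test of edgeR, two-sided, was run on the 17811 genes that reached 10 reads in any of the siRNA libraries, and a Benjamini-Hochberg adjusted p under 0.01 counted as past the threshold. All 8 genes passed this filter. NFE2L2 itself, the targeted gene, was at 32.9, 52.0 and 29.7 CPM with NFE2L2 duplexes 1, 2 and 3 and at 107, 110, 113 and 117 CPM in the control libraries. Duplex 2 left the most NFE2L2 mRNA, 46.6% of the control mean, against 29.5% with duplex 1 and 26.6% with duplex 3. The log2 fold change of NFE2L2 was −1.55 (standard error 0.178, edgeR adjusted p = 0.000995). The epithelial keratin KRT8 had at least 149218 reads in each of the 8 libraries, whereas the leukocyte marker PTPRC had at most 3 and the fibroblast collagen COL1A2 at most 3. The lung lineage factor NKX2-1 also had at most 3 reads in any library, whereas NAPSA, another lung marker, had 72 to 128. The epithelial marker EPCAM had only 142 to 427 reads. Log2 fold changes were 0.88 for KRT19, 0.80 for EPCAM and 0.74 for CDH1 (edgeR adjusted p = 0.0201, 0.0624 and 0.0455). They were 0.25 for KRT8 and 0.14 for KRT18 (edgeR adjusted p = 0.276 and 0.649), so no epithelial marker passed the threshold. Of the 4 markers of other cell types that were found, COL1A1 moved with the groups, from 3.96 to 4.54 CPM in control libraries to 9.25 to 13.7 CPM with NFE2L2 siRNA (log2 fold change 1.50, edgeR adjusted p = 0.000493). Summed over these 4 markers the level was 4.07 to 4.54 CPM and 9.34 to 13.7 CPM, and its part in the results was not tested. With bulk RNA, fewer cells that express a gene and less RNA per cell cannot be told apart.

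Of the 8 genes, 6 were reduced past the threshold with NFE2L2 siRNA, where 1.36% of all tested genes were reduced. None of the 8 was increased, where 1.39% of all tested genes were. With DESeq2 and with limma-voom the same 6 were reduced and 0 increased. At an unadjusted edgeR p under 0.05 the numbers were 7 and 0. The shares of 1.36% and 1.39% do not apply at that looser threshold. The share of all tested genes that meets it is not given, here or for the lists below. With control duplex 2 as the only control, or with the controls summed by duplex, 3 were reduced, namely NQO1, PTGR1 and EPHX1. For 7 of the 8 genes the highest silenced library was below the lowest control, against 11.4% of all tested genes. All 6 reduced genes fell more than 2-fold, and 0.983% of the tested genes both passed the threshold and fell more than 2-fold. The median log2 fold change of the 8 was −1.34, beside 0.01 over all tested genes. Summed over the 8 genes, the level was 657, 815 and 672 CPM with NFE2L2 siRNA and 3353, 3128, 2799 and 2828 CPM with control siRNA. NQO1 made up 73.5% of the summed control level.

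**Figure D1:**
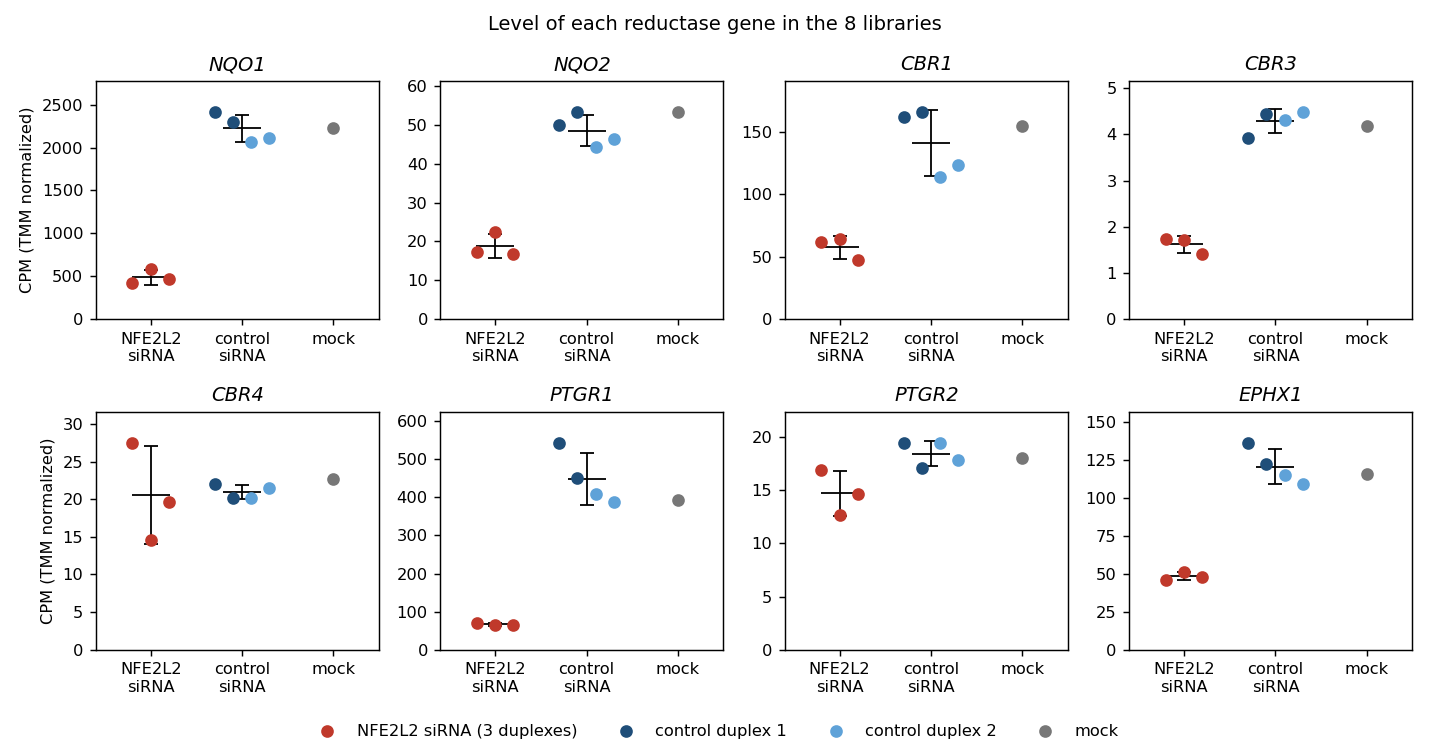
Level of each of the 8 genes in CPM (TMM normalized, linear axes from 0), with 1 point per library, horizontal lines for group means and bars for 1 SD over the 3 NFE2L2 siRNA and 4 control siRNA libraries; mock is 1 library without a bar. The groups are separate for 7 genes, whereas for CBR4 the NFE2L2 siRNA libraries, 14.5 to 27.5 CPM, extend to both sides of the control libraries, 20.1 to 22.0 CPM.

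Because NRF2 binds AREs, the 1000 bases before and 200 bases after the start of each gene's canonical transcript were searched in GRCh37 on both strands for the core motif TGACNNNGC. The core was present near NQO1, CBR1, CBR4 and PTGR1, that is, at 4 of the 8 genes, and in 38.0% of the same windows at 19894 coding genes. The stricter letters TGACTCAGC, which form part of the matches to the core, were present at NQO1 alone among the 8 and in 1.46% of all windows. At least 1 match is printed for each of these genes, 5′ to 3′ on the strand that holds the motif, with the motif in capitals and 10 flanking bases, to show how the letters in and around each core differ between the genes.
NQO1, chr16:69760900-69760928, minus strand, 451 bp before the start: gcagtcacagTGACTCAGCagaatctgag
CBR1, chr21:37442153-37442181, minus strand, 155 bp before the start: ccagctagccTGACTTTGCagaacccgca
CBR1, chr21:37441790-37441818, minus strand, 518 bp before the start: acaaagctacTGACTTAGCcagattttcc
CBR4, chr4:169931641-169931669, minus strand, 249 bp before the start: ccgactgataTGACCCAGCggggacagag
PTGR1, chr9:114362614-114362642, plus strand, 701 bp before the start: catcaggcctTGACCTGGCttctgcaagg
A match is a description of letters and not of binding. NQO2, CBR3 and EPHX1 were reduced and had no match in these windows, while CBR4 had a match and was not reduced past the threshold. A missing match says only that these letters are absent from the window.

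NQO1 (ENSG00000181019.8, GRCh37 chromosome 16, 69740899 to 69760571, minus strand) encodes the NAD(P)H quinone dehydrogenase that reduces quinones by 2 electrons. NQO1 was at 415, 583 and 460 CPM with NFE2L2 duplexes 1, 2 and 3, and at 2416, 2294, 2071 and 2117 CPM in control libraries 1 to 4. The highest NFE2L2 siRNA library, that of duplex 2, was therefore far below the lowest control library. The group means were 486 ± 86.6 CPM (SD, n = 3) and 2224 ± 160 CPM (SD, n = 4), a log2 fold change of −2.19 (standard error 0.134, 95% interval −2.49 to −1.89, edgeR adjusted p = 1.94e-05). This left 21.9% of the control level. The mock library had 2229 CPM, 100.2% of the control mean.

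NQO2 (ENSG00000124588.15, plus strand of chromosome 6 from 2988221 to 3019989) encodes the paralog of NQO1 that prefers dihydronicotinamide riboside as its electron donor. Its level was 17.2, 22.5 and 16.8 CPM with the NFE2L2 duplexes and 50.1, 53.3, 44.3 and 46.5 CPM with control siRNA. Duplex 2 again left the highest level, still well under the lowest control library. The means of 18.8 ± 3.19 CPM (SD, n = 3) and 48.5 ± 3.99 CPM (SD, n = 4) gave a log2 fold change of −1.37 (standard error 0.132, 95% interval −1.66 to −1.07, edgeR adjusted p = 0.000307). With the controls summed by duplex NQO2 missed the threshold (adjusted p = 0.0130), and so it did with control duplex 2 as the only control (adjusted p = 0.0154).

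Both quinone reductases fell, and the estimated fall was larger for NQO1. The NQO1 to NQO2 ratio within a library, taken on the log2 scale of CPM + 0.5, averaged 4.65 ± 0.0897 (SD, n = 3) in silenced cells and 5.50 ± 0.0701 (SD, n = 4) in controls. In linear terms NQO1 reads outnumbered NQO2 reads on average 45.4-fold in controls and 25.1-fold after silencing. The groups did not overlap, and the two-sided exact permutation test over 35 divisions of the 7 libraries gave p = 0.0571, the smallest value it can give. Adjusted over the 4 pairs of paralogs compared, p was 0.0762, so that the difference of −0.85 was larger than the spread between libraries but could not pass 0.05 in this design.

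CBR1 (ENSG00000159228.8, plus strand of chromosome 21 from 37442239 to 37445464) encodes the main cytosolic carbonyl reductase, which acts on anthracycline drugs, quinones and prostaglandins. Its level was 61.5, 64.5 and 47.2 CPM with NFE2L2 siRNA and 162, 166, 114 and 123 CPM with control siRNA. Every control library was above every NFE2L2 siRNA library, and the 2 libraries of control duplex 1 were above those of control duplex 2. The means were 57.8 ± 9.25 CPM (SD, n = 3) and 142 ± 26.5 CPM (SD, n = 4), and the log2 fold change was −1.29 (standard error 0.167, 95% interval −1.67 to −0.92, edgeR adjusted p = 0.00185). CBR1 had the widest control spread of the 8, a coefficient of variation of 18.7%. It missed the threshold with the controls summed by duplex (adjusted p = 0.0227) and with control duplex 2 alone (adjusted p = 0.0285).

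CBR3 (ENSG00000159231.5, plus strand of chromosome 21 from 37507377 to 37518860) encodes a close paralog of CBR1 and lies past it on the same strand, with the pseudogene MEMO1P1 between them. It had few reads, namely 62, 67 and 60 after silencing and 146, 165, 160 and 162 in controls. These correspond to 1.73, 1.70 and 1.41 CPM against 3.92, 4.44, 4.32 and 4.49 CPM, without overlap. The log2 fold change was −1.41 (standard error 0.151, 95% interval −1.75 to −1.07, edgeR adjusted p = 0.000618). CBR3 missed the threshold in 3 settings with fewer control libraries, with adjusted p = 0.0190 for control duplex 1 alone, 0.0181 for control duplex 2 alone and 0.0208 with the controls summed by duplex.

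CBR1 and CBR3 fell by amounts that were not told apart. Their log2 ratio, CBR3 over CBR1, was −4.77 ± 0.122 (SD, n = 3) after silencing and −4.87 ± 0.315 (SD, n = 4) in controls. The groups overlapped, and the two-sided exact permutation test gave p = 0.686. The transcripts of the pair had no 50-base stretch in common, so that a read of 50 bases could not come from both.

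CBR4 (ENSG00000145439.7, minus strand of chromosome 4 from 169784921 to 169931426) encodes a mitochondrial reductase that forms a complex with the product of HSD17B8 in mitochondrial fatty acid synthesis. It was the member without a shift between the groups. Its level was 27.5, 14.5 and 19.7 CPM with NFE2L2 duplexes 1, 2 and 3 and 22.0, 20.1, 20.2 and 21.4 CPM with control siRNA. Duplex 1 stood above all controls, whereas duplexes 2 and 3 stood below them. The log2 fold change was −0.03 (standard error 0.184, 95% interval −0.44 to 0.38, edgeR adjusted p = 0.949), an interval that does not reach the falls of −1.29 for CBR1 and −1.41 for CBR3, and its sign changed under 3 alternatives. PALLD, which overlaps CBR4 on the opposite strand, differed between the duplexes in another order, with 2052, 6534 and 7718 reads for duplexes 1, 2 and 3 and 5151 to 5934 reads in the controls. HSD17B8, named for its tie to CBR4 after its values were seen, was at 4.50 ± 1.21 CPM (SD, n = 3) and 5.01 ± 0.485 CPM (SD, n = 4), with a log2 fold change of −0.15 (edgeR adjusted p = 0.669).

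The CBR1 to CBR4 ratio separated the groups. On the log2 scale it was 1.50 ± 0.531 (SD, n = 3) after silencing and 2.71 ± 0.268 (SD, n = 4) in controls, or 2.83-fold and 6.54-fold in linear terms. The two-sided exact permutation test again gave its smallest p of 0.0571, and 0.0762 after adjustment over the 4 pairs.

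PTGR1 (ENSG00000106853.12, minus strand of chromosome 9 from 114312002 to 114362173) encodes prostaglandin reductase 1, which also oxidizes leukotriene B4 and reduces reactive alkenals. It had the largest fold change of the 8. Its level was 70.1, 65.2 and 64.0 CPM with NFE2L2 siRNA and 543, 450, 410 and 389 CPM with control siRNA. The NFE2L2 siRNA libraries lay close together, and the lowest control library was several times above them. The means of 66.4 ± 3.24 CPM (SD, n = 3) and 448 ± 68.2 CPM (SD, n = 4) gave a log2 fold change of −2.75 (standard error 0.133, 95% interval −3.05 to −2.46, edgeR adjusted p = 4.72e-06). This left 14.8% of the control level, a 6.74-fold fall. By adjusted p, PTGR1 ranked 8 and NQO1 ranked 18 among the 243 genes that were reduced. The mock library, at 394 CPM, was at 87.9% of the control mean and inside the range of the control libraries.

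PTGR2 (ENSG00000140043.7, plus strand of chromosome 14 from 74318534 to 74352429) encodes prostaglandin reductase 2, which acts on 15-keto-prostaglandin E2. Its level was 16.9, 12.7 and 14.6 CPM with NFE2L2 siRNA and 19.4, 17.0, 19.5 and 17.8 CPM with control siRNA. The groups did not overlap, but the highest NFE2L2 siRNA library was just below the lowest control library. With a log2 fold change of −0.33 (standard error 0.123, 95% interval −0.60 to −0.05), PTGR2 did not pass the threshold (edgeR adjusted p = 0.134). Of the 50-base stretches of its canonical transcript, 79.3% also occur in transcripts of other annotated genes. The largest part is shared with a gene on the opposite strand that was not among the counted genes. Counting by strand separates reads from such antisense overlap. A smaller part is shared with a readthrough gene on the same strand, where counting by strand does not help.

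The PTGR1 to PTGR2 ratio had the largest shift of the 4 pairs. On the log2 scale it was 2.15 ± 0.155 (SD, n = 3) after silencing and 4.56 ± 0.200 (SD, n = 4) in controls. PTGR1 reads thus outnumbered PTGR2 reads on average 23.5-fold in controls and 4.43-fold after silencing, with p = 0.0571 by the two-sided exact permutation test and 0.0762 after adjustment over the 4 pairs.

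EPHX1 (ENSG00000143819.8, plus strand of chromosome 1 from 225997826 to 226033264) encodes microsomal epoxide hydrolase, which converts epoxides of polycyclic hydrocarbons and drugs to diols. Its level was 46.2, 51.2 and 48.1 CPM with NFE2L2 siRNA and 136, 123, 115 and 109 CPM with control siRNA. The groups were far apart, and the 3 NFE2L2 duplexes gave nearly the same level. The means were 48.5 ± 2.50 CPM (SD, n = 3) and 121 ± 11.8 CPM (SD, n = 4), a log2 fold change of −1.32 (standard error 0.103, 95% interval −1.55 to −1.09, edgeR adjusted p = 9.48e-05). EPHX1 kept 40.1% of its control level, close to NQO2 with 38.8%, CBR1 with 40.8% and CBR3 with 37.6%.

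The 3 NFE2L2 duplexes could be compared only as single libraries, without a test. As a share of the control mean, NQO1 was at 18.7%, 26.2% and 20.7% with duplexes 1, 2 and 3. NQO2 was at 35.4%, 46.4% and 34.6%. CBR1 was at 43.5%, 45.6% and 33.4%, and EPHX1 at 38.3%, 42.4% and 39.8%. For these genes duplex 2, which left the most NFE2L2 mRNA, left the most of the enzyme's mRNA as well. PTGR1 was highest with duplex 1, at 15.7%, 14.6% and 14.3%, and so was CBR3, at 40.4%, 39.7% and 32.9%. The widest range among the 8 was that of CBR4, from 69.5% with duplex 2 to 131% with duplex 1.

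**Figure D2:**
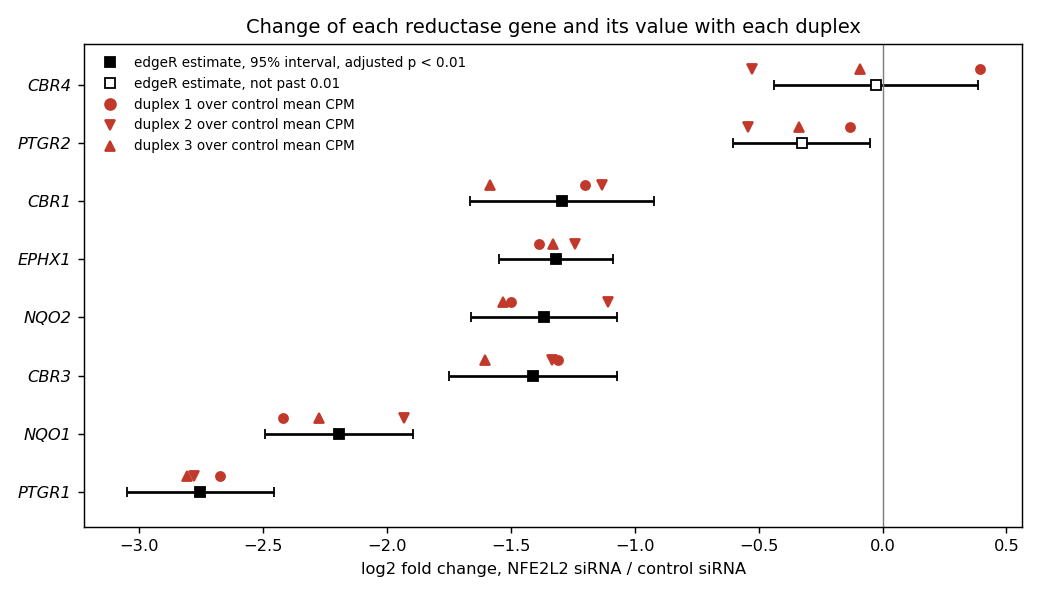
Log2 fold change of each gene (NFE2L2 siRNA over control siRNA), with squares and bars for the edgeR estimate and its 95% interval and red symbols for each NFE2L2 duplex over the mean CPM of the 4 control libraries. Filled squares mark the 6 genes past the threshold of 0.01, from −2.75 for PTGR1 to −1.29 for CBR1, and open squares mark PTGR2 at −0.33 and CBR4 at −0.03.

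The control duplexes were compared with each other to see how far the control level of these genes depends on the duplex. In the fit over all 7 libraries, 0.0% of tested genes differed past the threshold (0 of 17811 by edgeR, 1293 at an unadjusted p under 0.05, and 70 of 15048 genes with an adjusted p by DESeq2), and none of the 8 did by either tool. CBR1 had the largest difference, 164 CPM with control duplex 1 and 119 CPM with control duplex 2, a log2 fold change of −0.47 (95% interval −0.82 to −0.11, edgeR adjusted p = 0.535). With the 4 control libraries fitted alone, a setting chosen after seeing the data, 546 genes passed the threshold and CBR1 was the only one of the 8 among them, with a log2 fold change of −0.46 and an adjusted p of 0.00205. PTGR1 was next, at 497 and 399 CPM with the 2 control duplexes and a log2 fold change of −0.31 (edgeR adjusted p = 0.623). Both differences were smaller than the change with NFE2L2 siRNA, and both genes lay below either control duplex in every NFE2L2 siRNA library.

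Levels can be compared between genes only per length, here as CPM per kilobase of merged exons. In control libraries NQO1 led with 749 ± 53.8 CPM per kb (SD, n = 4), followed by PTGR1 with 119 ± 18.1, CBR1 with 57.8 ± 10.8, EPHX1 with 48.8 ± 4.75 and NQO2 with 20.0 ± 1.64. CBR3 with 4.30 ± 0.257, CBR4 with 4.10 ± 0.178 and PTGR2 with 2.64 ± 0.172 were far lower. Reads that PTGR2 shares with the readthrough gene of its strand were counted on neither, which can lower its value per length. The ranges over the 4 control libraries overlapped between CBR1 and EPHX1 and between CBR3 and CBR4, so that the order within these pairs was not resolved, and with the length of the longest transcript CBR4 stood above CBR3. All other neighbours in the order were separate. NQO1 ranked 16 among 13836 tested coding genes per length in control libraries and 133 with NFE2L2 siRNA. PTGR1 moved from rank 218 to rank 2273, and CBR4 from 7167 to 7242.

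With NFE2L2 siRNA the order of the 8 changed. NQO1 still led with 164 ± 29.2 CPM per kb (SD, n = 3), but PTGR1, at 17.6 ± 0.860, was now behind CBR1 at 23.6 ± 3.78 and EPHX1 at 19.6 ± 1.01. CBR3, at 1.62 ± 0.179, became the lowest of the 8, below PTGR2 at 2.11 ± 0.300. The ranges over the 3 libraries overlapped between CBR1 and EPHX1, whereas PTGR1 and EPHX1 were separate by a small margin. With the longest transcript in place of merged exons PTGR1 stood ahead of EPHX1 by a small margin, 28.9 against 27.1 CPM per kb.

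**Figure D3:**
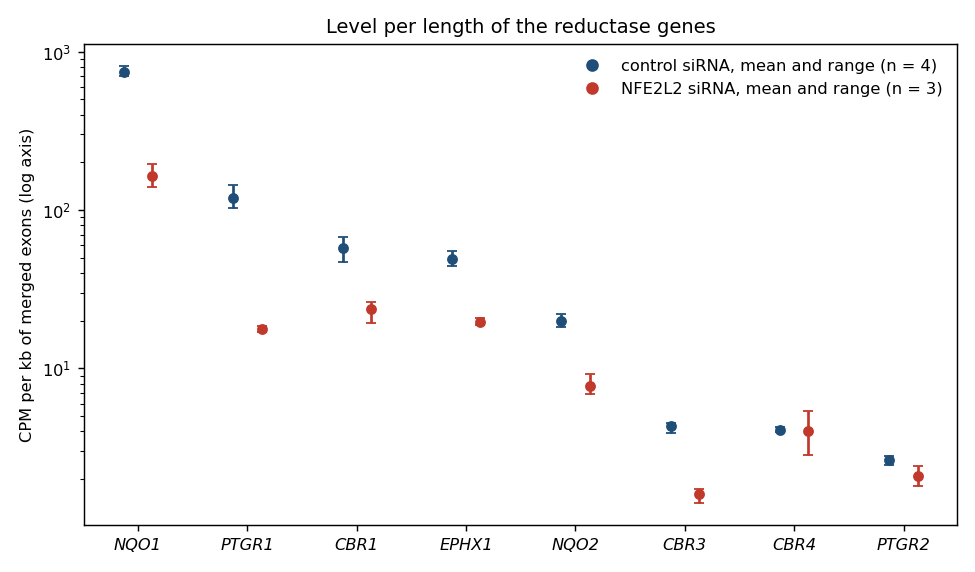
Level of each gene in CPM per kb of merged exons on a log axis, with points for the mean and bars for the range over the 4 control siRNA (blue) and 3 NFE2L2 siRNA (red) libraries. NQO1 is the highest in both groups at 749 and 164 CPM per kb, and PTGR1 falls from 119 to 17.6, to about the level of EPHX1.

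The genes that lie beside or across the 8 were examined as well. The 22 nearest or overlapping tested genes held 1 reduced and 1 increased gene, where 1.36% and 1.39% of all tested genes were. The reduced gene was HTATSF1P2, a pseudogene next to NQO2 on the other strand from 3023376 to 3024006, with 2.29 CPM against 4.35 CPM in controls (log2 fold change −0.93, standard error 0.157, edgeR adjusted p = 0.00753). The increased gene was DOP1B, next to CBR3 on the same strand from 37529080 to 37666572, with 14.3 CPM against 8.50 CPM (log2 fold change 0.75, standard error 0.119, edgeR adjusted p = 0.00547), opposite to the fall of CBR3. SETD4, which spans CBR1 in antisense, had a log2 fold change of −0.20 (edgeR adjusted p = 0.325), and NQO1-DT, which starts next to NQO1 in the other direction, one of −0.56 (edgeR adjusted p = 0.425). CBR3-AS1, antisense to CBR3, shares 64.9% of the 50-base stretches of the CBR3 transcript, on the opposite strand. The libraries were stranded and were counted by strand, so that such antisense overlap is separable, and reads shared by genes of the same strand were counted on neither.

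For each reduced gene, the tested genes with the most similar profile over the 8 libraries were listed, measured as the root mean square difference of centred log2(CPM + 0.5) values among 13335 genes with a mean of at least 50 reads. NQO1 was closest to SRXN1, which repairs oxidized peroxiredoxins, at 0.115, and then to CES1, a carboxylesterase, at 0.123 and TRIM16 at 0.156. NQO2 was closest to MGST1, a microsomal glutathione transferase, at 0.0885, then UCHL1 at 0.107 and TALDO1 at 0.111. CBR1 was closest to the drug exporter ABCG2 at 0.120, then NQO2 at 0.143 and glutathione reductase GSR at 0.157. CBR3 was closest to MAFG, a small MAF protein, at 0.0529, then FTH1P8 at 0.0686 and UCHL1 at 0.0740. PTGR1 was closest to GCLM, a glutathione synthesis subunit, at 0.199, then thioredoxin reductase TXNRD1 at 0.207 and AKR1C1 at 0.218. EPHX1 was closest to PGD, an enzyme of the pentose phosphate pathway, at 0.0742, then TBXAS1 at 0.0747 and FTH1P20 at 0.0870. PTGR1 thus had the least similar companions of the 6 by this measure. The measure is not scaled and can grow with the size of a change, which was largest for PTGR1. These values describe 8 libraries that share their group differences, and the added 0.5 CPM compresses the profile of low genes such as CBR3.

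A list of other enzymes of related chemistry was examined, which leaves out the aldo-keto reductases. AKR1C1, an aldo-keto reductase named above, had a log2 fold change of −2.30 (edgeR adjusted p = 2.21e-05). Of 28 other reducers of quinones and carbonyls, 25 were tested and 1 was reduced, where 2.76% of all tested genes changed in either direction. It was BLVRB, the NADPH-dependent biliverdin and flavin reductase, with 89.0 ± 11.4 CPM (SD, n = 3) against 184 ± 20.3 CPM (SD, n = 4) and a log2 difference of −1.05 (standard error 0.123, edgeR adjusted p = 0.00108). BLVRB missed the threshold with control duplex 2 alone (adjusted p = 0.0288) and with the controls summed by duplex (adjusted p = 0.0239). The median of the list was −0.04, with 14 of 25 values below 0. The most abundant of the others were HSD17B12, with a log2 fold change of −0.19 (edgeR adjusted p = 0.388), HSD17B4, with −0.04 (adjusted p = 0.794), and VAT1, a relative of the quinone oxidoreductases, with 0.63 (adjusted p = 0.0161). No gene of the list was increased by edgeR or limma-voom, 2 were at an unadjusted p under 0.05, and DESeq2 called 2 increased, VAT1 and DHRS2. Over all genes DESeq2 called 592 reduced and 722 increased, against 243 and 248 by edgeR.

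Flavoprotein reductases, most of which pass single electrons to quinones and thereby form the semiquinone that NQO1 avoids, formed a second list of 14 genes, all tested. AIFM2, which encodes the ubiquinone reductase FSP1, was the only one that edgeR called reduced, where 1.36% of all tested genes were. It fell from 57.4 ± 4.97 CPM (SD, n = 4) to 28.1 ± 1.03 CPM (SD, n = 3), with a log2 fold change of −1.03 (95% interval −1.25 to −0.80, edgeR adjusted p = 0.000332). It missed the threshold with control duplex 2 alone (adjusted p = 0.0152) and with the controls summed by duplex (adjusted p = 0.0163). DESeq2 called CYB5R4 reduced as well, which had a log2 fold change of −0.48 by edgeR (adjusted p = 0.0291). No gene of this list was increased by edgeR, DESeq2 or limma-voom or at an unadjusted p under 0.05. The median log2 fold change was −0.22, and 12 of 14 values were below 0. POR, the electron donor of microsomal cytochromes P450, had −0.44 (edgeR adjusted p = 0.125), FDXR had −0.04 (adjusted p = 0.890) and MTRR had 0.18 (adjusted p = 0.524).

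Of 23 genes of prostaglandin and leukotriene synthesis, transport and reception, 14 were tested. TBXAS1, thromboxane synthase, was the only one that edgeR called reduced, where 1.36% of all tested genes were. It fell from 5.76 ± 0.466 CPM (SD, n = 4) to 1.95 ± 0.176 CPM (SD, n = 3), with a log2 fold change of −1.56 (standard error 0.145, edgeR adjusted p = 0.000269). With control duplex 2 alone TBXAS1 missed the threshold (adjusted p = 0.0121). HPGD encodes the dehydrogenase that makes the 15-oxo-prostaglandins on which PTGR1 and PTGR2 act, and is named here after its values were seen. Reads on HPGD numbered 7601, 4793 and 8056 in the silenced libraries and 4000, 3727, 3736 and 3674 in the controls. HPGD was thus higher in every NFE2L2 siRNA library, with a log2 fold change of 0.77 (standard error 0.161), but did not pass the threshold (edgeR adjusted p = 0.0191), whereas DESeq2 called it. Of the most abundant genes, PTGES3 had −0.38 (edgeR adjusted p = 0.0345), ABCC4, a prostaglandin exporter, 0.41 (adjusted p = 0.0289) and LTA4H 0.03 (adjusted p = 0.894). The median of the list was 0.10. No gene was increased by edgeR or limma-voom, 5 were at an unadjusted p under 0.05, and DESeq2 called 2 increased, HPGD and ABCC4, and 2 reduced, PTGES3 and TBXAS1.

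The last list held 10 partners of epoxide and quinol metabolism, of which 8 were tested. UGDH, which makes the UDP-glucuronate used to conjugate hydroquinones and diols, was the only one that edgeR called reduced, where 1.36% of all tested genes were. It fell from 772 ± 65.9 CPM (SD, n = 4) to 265 ± 19.3 CPM (SD, n = 3), with a log2 fold change of −1.54 (standard error 0.102, edgeR adjusted p = 2.77e-05). CYP1B1, which forms epoxides of polycyclic hydrocarbons, was at 203 ± 38.7 CPM (SD, n = 3) against 115 ± 17.7 CPM (SD, n = 4), with a log2 fold change of 0.83 that did not pass the threshold (edgeR adjusted p = 0.0106), while DESeq2 called it. UGP2 had −0.10 (edgeR adjusted p = 0.672). Among the other epoxide hydrolases, named after their values were seen, EPHX2 had a log2 fold change of 0.10 (edgeR adjusted p = 0.793), and EPHX3 had 6, 9 and 4 reads against 21, 23, 25 and 15 reads (log2 fold change −1.79, edgeR adjusted p = 0.0159) with 7 reads in the mock library. EPHX3 was called reduced by DESeq2 and with a filter of 1 read in the edgeR fit. The median of the list was −0.03. CYP1B1 was the only gene of the list at an unadjusted p under 0.05 and increased, and limma-voom called no increase.

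**Figure D4:**
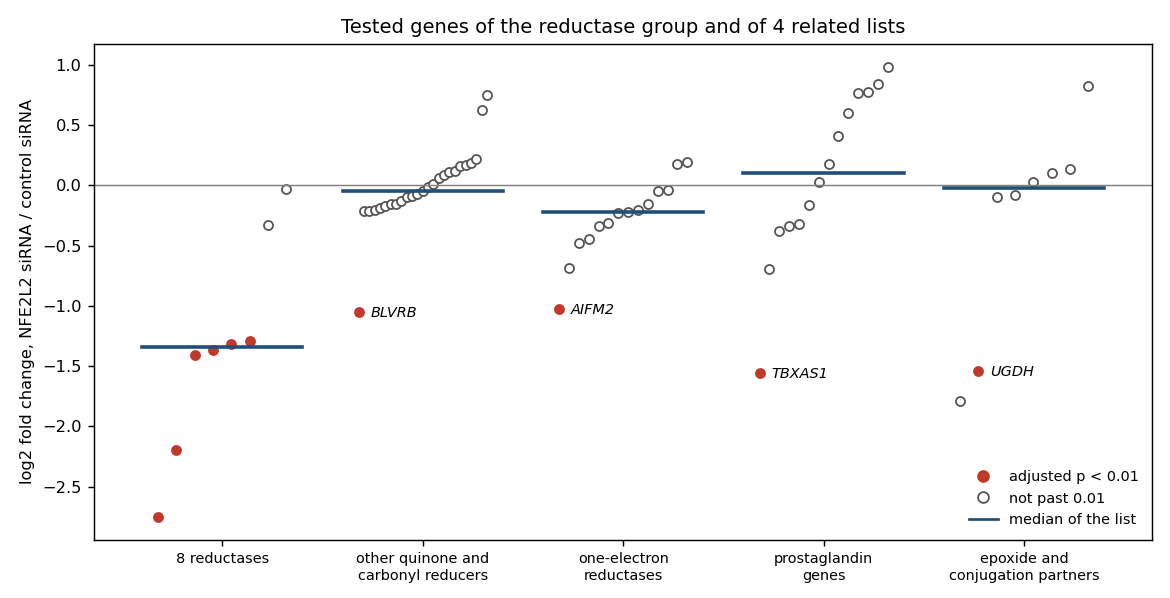
Log2 fold change (NFE2L2 siRNA over control siRNA) of the 8 genes and of each tested gene of the 4 related lists, sorted within a list. The label 8 reductases in the figure includes the epoxide hydrolase gene EPHX1. Red points mark an adjusted p under 0.01, and horizontal bars mark the median. The medians are −1.34 for the 8 genes and −0.04, −0.22, 0.10 and −0.03 for the lists, each of which holds 1 named gene past the threshold.

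Each gene was followed through 18 other ways to run the comparison. NQO1, PTGR1 and EPHX1 passed the threshold in all 18, with EPHX1 between −1.43 and −1.21. NQO2 passed in 16, CBR1 in 16 and CBR3 in 15, and their direction did not change in any. PTGR2 stayed between −0.43 and −0.24 and passed in none of them. With any 1 of the 7 libraries left out, the reduced genes among the 8 numbered 6 in each case.

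**Figure D5:**
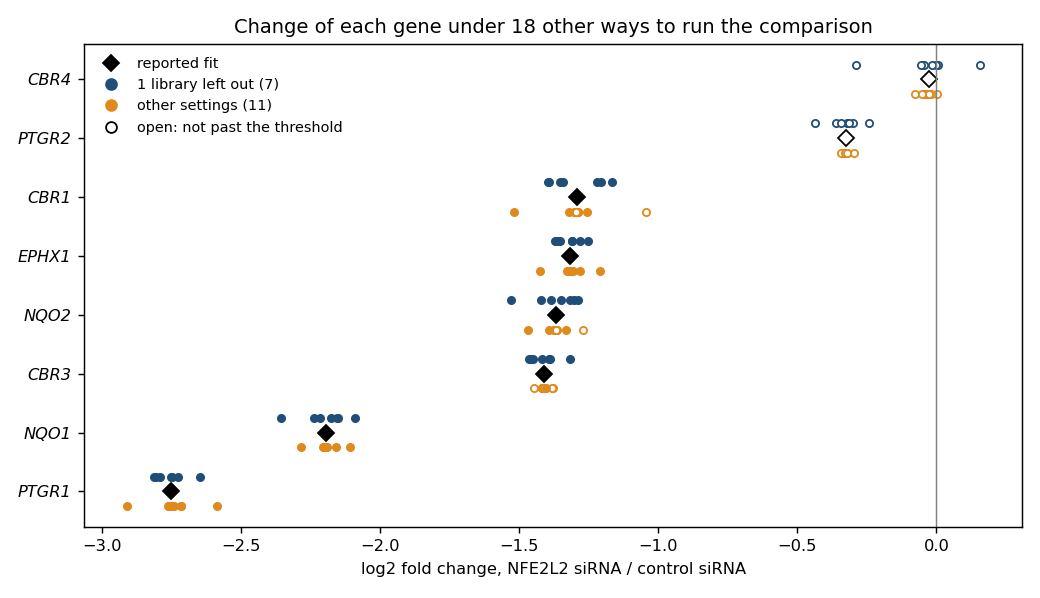
Log2 fold change of each gene in the reported fit (diamonds), with each of the 7 libraries left out (blue) and under 11 other settings (orange); open symbols did not pass the threshold of their setting. PTGR1 stays between −2.91 and −2.59 and NQO1 between −2.36 and −2.09, and the open orange symbols of NQO2, CBR1 and CBR3 are settings with 1 control duplex or with control libraries summed.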

How the data were processed

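Total RNA was sequenced from 8 strand-specific, ribosomal RNA-depleted libraries. According to the study's methods and the submitters' processing notes, the authors aligned reads to hg19 with HISAT 0.1.6 and counted those on GENCODE 19 genes by strand with HTSeq 0.6.0. The deposited values are raw counts per gene. Unassigned reads were left out, 1.09 to 1.23% of entries as ambiguous and 16.9 to 19.1% as not unique. Names, positions and lengths came from GENCODE 44 mapped to GRCh37, which held 55538 of the 60291 identifiers and may differ from the authors' gene models.

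Groups followed the sample titles. The mock library entered no test of the reported comparison and was used only in the alternative that adds it to the controls. Counts were compared with edgeR 4.0.16 in R 4.3.3 (TMM, glmQLFit, glmQLFTest) without covariates. A standard error was taken as the size of the log2 fold change divided by the root of its F statistic. The 95% intervals use the t distribution with the total degrees of freedom of edgeR, prior plus residual. CPM used TMM sizes over 8 libraries. Alternatives included DESeq2 1.42.0 and limma-voom (limma 3.58.1), other normalizations, filters, control groups and each library left out. The test was checked on simulated data.

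The 8 genes, the 4 lists and the markers were chosen with earlier results of these data known. Named besides them were list genes past the threshold, up to 3 of each list with the highest mean count, neighbours and the genes most alike in profile. Floors cover counting error only. A gene of the epoxide list and a sequence are not reported here.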

Additional observations from a re-analysis of the deposited data

Results flagged for a closer look

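The 4 control siRNA libraries were examined for a single library far from the others in 48 genes. These were the 8 genes described above, the 22 genes beside them, NFE2L2, KEAP1 and the genes of the related lists that the naming rule selects. The criterion was a gap to the nearest library, as a share of the range, above the 95% critical value of Dixon's test for 4 samples, and chance alone would give 2.4 such genes. There were 2. HSD17B4, a peroxisomal dehydrogenase, was at 154 CPM in control replicate 1 and at 138 to 139 CPM in the other control libraries, a gap of 0.930 of the range. UGDH was at 870 CPM in the same library and at 731 to 754 CPM in the others, a gap of 0.838. None of the 8 genes described above met the criterion, although NQO1, CBR4, PTGR1 and EPHX1 were also highest in control replicate 1.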

How the results depend on the processing

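The number of reduced reductases was 6 under 15 of 18 alternatives, 5 with control duplex 1 alone and 3 with control duplex 2 alone or control libraries summed by duplex, settings with fewer control samples. The number of reductases increased was 0 under all 18. The number of all genes reduced was 592 with DESeq2, 445 with a filter of 1 read, 631 at a threshold of 0.05, 94 with control duplex 1 alone, 53 with control duplex 2 alone, 74 with summed controls and 128 to 522 with 1 library left out; the number increased was 722, 574, 825, 23, 7, 3 and 35 to 395 under the same settings and 450 with the mock library added to the controls. Leaving out NFE2L2 siRNA replicate 2 gave the highest of these numbers and leaving out control replicate 2 the lowest. Genes past the threshold in the list of other quinone and carbonyl reducers numbered 3 with DESeq2, the filter of 1 read or the threshold of 0.05, 2 with library size alone or the mock library added, and 0 with control duplex 2 alone or summed controls. In the flavoprotein list they numbered 2 with DESeq2 or the threshold of 0.05, 0 with control duplex 2 alone or summed controls, and 1 to 2 with 1 library left out. In the prostaglandin list they numbered 4 with DESeq2 or the threshold of 0.05, 2 with the filter of 1 read or the mock library added, 0 with control duplex 2 alone, and 1 to 2 with 1 library left out. In the epoxide list they numbered 3 with DESeq2, the filter of 1 read or the threshold of 0.05, 2 with library size alone or the mock library added, and 1 to 2 with 1 library left out. The cause of these shifts was not tested. Among the reductases, CBR4 turned sign with library size alone (0.0025), without NFE2L2 siRNA replicate 2 (0.16) and without NFE2L2 siRNA replicate 3 (0.0042), and ranged from −0.29 to 0.16 with 1 library left out. The comparison of control duplexes gave 1 reductase instead of 0 with the 4 control libraries alone. With the mock library added to the controls, the paralog differences were −0.83 for NQO1/NQO2, −1.22 for CBR1/CBR4 and −2.38 for PTGR1/PTGR2. Each had an adjusted permutation p of 0.0476. An added library lowers the smallest p that this test can give, and the identical values reflect that limit. The mock library also received no siRNA. The CBR3/CBR1 difference of 0.10 became −0.10 with a pseudocount of 0.05 CPM and −0.012 without control replicate 1. With 1 library left out the ranges were −0.89 to −0.80 for NQO1/NQO2, −0.01 to 0.20 for CBR3/CBR1, −1.51 to −1.03 for CBR1/CBR4 and −2.50 to −2.34 for PTGR1/PTGR2. The median of all genes was 0.04 with library size alone and 0.00 with DESeq2 size factors. No paired analysis was possible because no label links a silenced library to a control: NFE2L2 siRNA libraries are numbered by duplex, and control libraries by non-targeting duplex and repeat. Reads were few for CBR3, 60 to 167 in any library, and for NQO1-DT, 4 to 15.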
